A study of Mus musculus with 10 samples.

Results

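The 10 genes described here encode the parts of the nitric oxide and cGMP pathway that make nitric oxide, set how much of it is made, and act on or break down its second messenger. They were taken by symbol from the 55453 genes of the deposited table: the nitric oxide synthases *Nos1* and *Nos3*, the synthase-binding protein *Cav1*, the cofactor enzyme *Gch1*, the inhibitor-removing enzymes *Ddah1* and *Ddah2*, the cGMP-dependent kinase *Prkg1*, and the cGMP phosphodiesterases *Pde5a*, *Pde1a* and *Pde1c*. RNA was sequenced from whole aortae of male C57BL/6 mice that carried no transgene or treatment, 5 young mice of 14.5 weeks and 5 old mice of 92.5 weeks, with 1 library per mouse and the fat around the vessel removed. All 10 members passed the filter on low counts, which left 14614 genes for testing.

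In the vessel wall, nitric oxide made by the endothelial synthase diffuses into smooth muscle and activates soluble guanylyl cyclase, which makes cGMP. The cGMP-dependent kinase then lowers calcium and its effect on the contractile filaments, so that the vessel relaxes, and phosphodiesterases end the signal. Caveolin-1 holds the endothelial synthase inactive in caveolae, tetrahydrobiopterin keeps it coupled, and methylated arginines block it until dimethylarginine dimethylaminohydrolases remove them.

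In old aortae *Cav1* and *Ddah1* were lower and *Pde1c* was higher than in young aortae, and the other 7 members did not pass the test. *Cav1* fell by 28.5% and *Ddah1* by 52.8% of their young means, while *Pde1c*, a transcript of very low level, reached 4.03-fold its young mean. These were the 3 of 10 members with a Benjamini-Hochberg adjusted p below 0.05 in edgeR's quasi-likelihood test, beside 11.5% of all tested genes. The single higher member stood beside 6.48% of tested genes called higher, and the 2 lower members beside 4.99% called lower. That higher member, *Pde1c*, passed the filter on low counts only through the old group, where it is high, so its place in these counts is no support for a change in the members. The old and young libraries did not overlap for 2 members, *Cav1* and *Ddah1*, and for 9.92% of tested genes. The median log2 fold change of the members was -0.02, and that of all tested genes was 0.00.

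The libraries held 19640401 to 22886153 counted reads. Mitochondrial transcripts took 4.50% to 6.51% of reads in 9 libraries and 11.0% in old replicate 2. Young replicate 1 had the highest summed level of 9 adipocyte markers, 29217 normalized counts, against 3673 to 15932 in the other 9 libraries. Smooth muscle markers were abundant in every library, with sums of 927199 to 1167805 normalized counts over 12 genes. Of these 12 genes 1 was called higher and none lower. Endothelial markers summed to 21486 to 54467 normalized counts over 16 genes. Of 8 macrophage markers 3 were called higher in old aortae. The sums of the 8 were 8317 to 10437 normalized counts in the young and 10389 to 20556 in the old group. Of 4 tested T and B cell markers 2 were called higher. Both of them passed the filter on low counts only through the old group, where they are high, so their calls are a description only. Among 10 fibroblast markers 1 was called higher and 2 lower, and among 6 tested Schwann cell and neuron markers 1 was higher. Among 5 tested skeletal or cardiac muscle markers 1 was higher and 1 lower, and none of 5 erythrocyte markers was called. These counts stand beside 6.48% of all tested genes called higher and 4.99% called lower. No marker of these lists was at 0 in all libraries, and their part in the members' results was not tested. As the tissue is bulk, fewer cells of a type and less RNA per cell cannot be told apart.

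**Figure D1:**
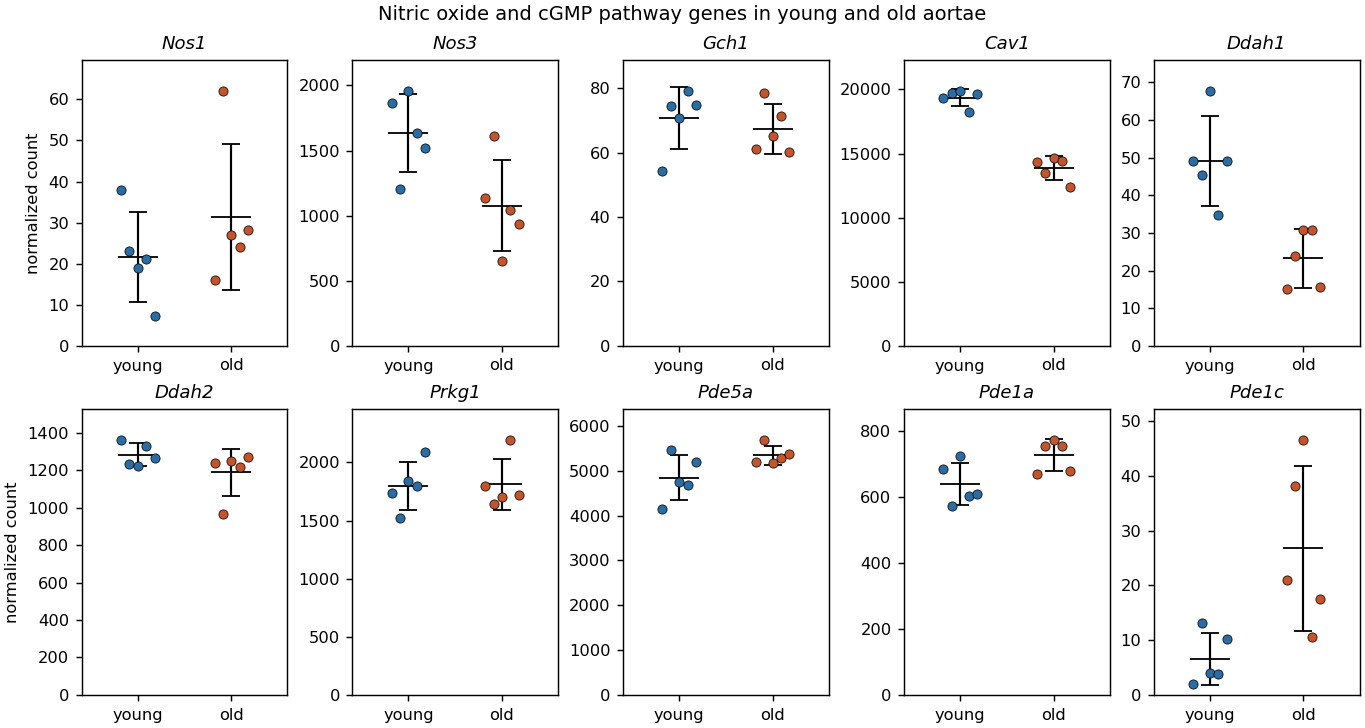
Normalized counts (reads divided by a size factor for each library) of the 10 members in the 5 young and 5 old aortae, 1 point per mouse, with the mean and SD as horizontal line and bars on axes that start at 0. The old points lie wholly below the young points for *Cav1* and *Ddah1*, and old replicate 2 stands above the other old mice for *Nos1*.

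The promoter windows of the 3 members called by edgeR are shown. The call of *Pde1c*, which entered the test only through the old group, is a description only. Each is a RefSeq window of assembly GRCm38.p6 from 250 bases before to 50 bases after a start site, read 5′ to 3′ on the gene's strand, and for genes with several windows the most upstream is given. Capitals mark matches to 6 motifs searched on both strands: E-box CACGTG, heat shock element GAANNTTC, cAMP response element TGACGTCA, the CArG box, GC box GGGCGG and TATA box TATAAA. The windows lie at chr6:17306085-17306384 (plus strand) for *Cav1*, chr3:145758442-145758741 (plus strand) for *Ddah1* and chr6:56369585-56369884 (minus strand) for *Pde1c*.
Cav1: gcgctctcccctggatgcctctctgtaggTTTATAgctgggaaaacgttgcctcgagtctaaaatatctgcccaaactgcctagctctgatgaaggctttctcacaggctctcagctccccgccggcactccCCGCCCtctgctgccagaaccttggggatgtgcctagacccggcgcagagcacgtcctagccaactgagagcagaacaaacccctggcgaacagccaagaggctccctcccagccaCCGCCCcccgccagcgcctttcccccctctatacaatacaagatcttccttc
Ddah1: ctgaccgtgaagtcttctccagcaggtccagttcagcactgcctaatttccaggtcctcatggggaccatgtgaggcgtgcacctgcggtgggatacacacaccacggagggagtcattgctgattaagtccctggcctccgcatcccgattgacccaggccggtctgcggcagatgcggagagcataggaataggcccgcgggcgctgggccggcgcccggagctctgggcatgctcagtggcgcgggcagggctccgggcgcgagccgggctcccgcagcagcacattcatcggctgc
Pde1c: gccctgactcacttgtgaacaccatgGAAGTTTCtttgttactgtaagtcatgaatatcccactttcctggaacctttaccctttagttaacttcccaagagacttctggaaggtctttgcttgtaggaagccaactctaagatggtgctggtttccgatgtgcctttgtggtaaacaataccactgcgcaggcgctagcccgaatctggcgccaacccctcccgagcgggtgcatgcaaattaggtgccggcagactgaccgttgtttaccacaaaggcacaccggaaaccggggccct

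The *Cav1* window held 2 matches to the GC box and 1 to the TATA box, which occurred in 35.7% and 13.6% of all 32851 promoter windows. The TATA box match lay at -221 from the start site, on the opposite strand. The other of the 2 *Cav1* windows held no match. The *Pde1c* window held a heat shock element, found in 7.86% of windows. Of the 3 windows of *Pde1c*, only the printed one held a match to any of the 6 motifs. That window lies inside the gene, whose annotated span on the minus strand begins at 56569103. The *Ddah1* window held none of the 6 motifs and had a GC content of 65.7% with 23 CpG dinucleotides, against medians of 52.7% and 7 over all windows. E-boxes occurred in 7.15% of windows, cAMP response elements in 1.79% and CArG boxes in 1.63%, and none of these was in the windows printed. A match is a description of the letters and not of factor binding.

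Among the synthases, *Nos3*, the endothelial enzyme (chromosome 5, 24364810 to 24384474, plus strand, GRCm38), was the abundant one. Its normalized counts were 1866, 1206, 1959, 1632 and 1517 in young replicates 1 to 5 and 1132, 1613, 652, 1043 and 937 in old replicates 1 to 5. Old replicate 2 lay among the young libraries and young replicate 2 among the old ones, so the groups overlapped. The mean was 1636 ± 299 (SD, n = 5) in young and 1076 ± 350.4 (SD, n = 5) in old aortae. The log2 fold change of *Nos3* was -0.60 (SE 0.22, 95% interval -1.08 to -0.11) with a Benjamini-Hochberg adjusted p of 0.11 in edgeR, so it was not called. Its call changed with the setting: the adjusted p was 0.0198 by DESeq2 and 0.0297 by limma-voom with sample quality weights. It was 0.0223, with a log2 fold change of -0.80, by edgeR without old replicate 2. The study also used DESeq2, and its discussion describes *Nos3* as downregulated.

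*Nos3* shares 32.3% of its exonic bases with *Atg9b* and *Gm15587* on the opposite strand, and whether the reads were counted by strand is not given in the sources used here. These neighbours held 3 to 16 and 0 to 6 raw reads per library, against 700 to 1965 for *Nos3*.

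Of 16 endothelial markers, 2 were called lower (*Tek* and *Ptprb*) and none higher, beside 4.99% and 6.48% of all tested genes, and 14 were not called. The median of their log2 fold changes was -0.34. Their summed level was 34437 to 54467 normalized counts in young and 21486 to 39569 in old aortae, with old replicate 2 the highest of the old. Measured relative to the geometric mean of these markers, *Nos3* had a log2 fold change of -0.21 (SE 0.24) and an edgeR Benjamini-Hochberg adjusted p of 0.435. On that scale the median of all tested genes was 0.43, 18.5% of tested genes were called, and 17.8% were called higher. The members called were *Pde1c*, *Nos1* (0.93, SE 0.34) and *Pde1a* (0.64, SE 0.23), all higher, so their distance above the median of all genes was smaller than these values. *Pde1c* entered this test only through the old group, where it is high, so its call is a description only. *Cav1* was at -0.04 (SE 0.26) and *Ddah1* at -0.62 (SE 0.33) there, and neither was called. Both lay below the median of all tested genes on that scale, 0.43, as did *Nos3*, so their distance from it was larger than these values. That median mirrors the offset itself, as the mean log2 marker level differed by -0.424 between old and young. Distances from the median therefore come close to the changes without the offset and say nothing more about levels relative to these markers. The SE of *Cav1* was 0.06 without the marker offset. The part of the endothelial marker level in these results was not tested.

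**Figure D2:**
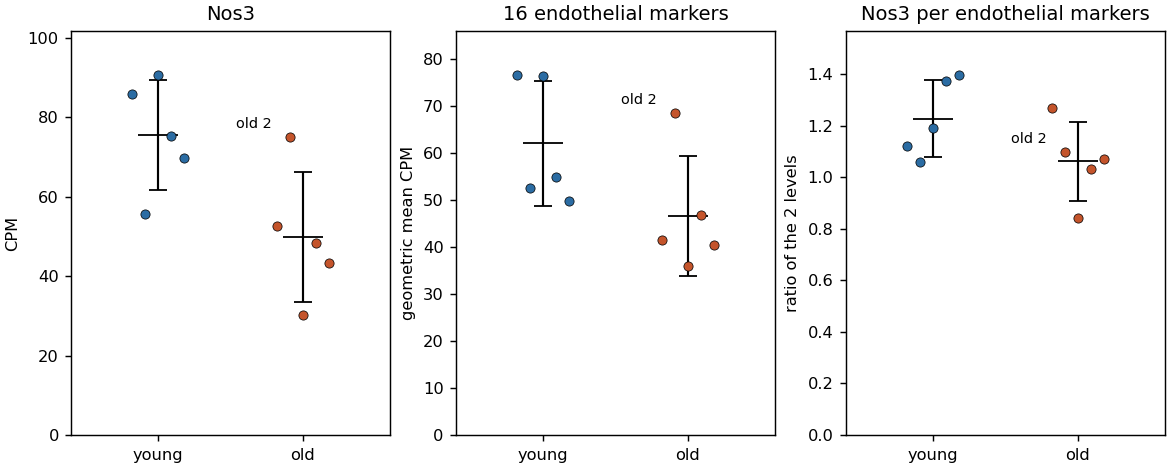
*Nos3* level as CPM (reads scaled to a fixed library total), the geometric mean CPM of 16 endothelial markers, and the ratio of the 2 in each young and old aorta, with mean and SD. Old replicate 2 is the highest old library in the first 2 panels, and the ratio runs from 1.06 to 1.40 in young and from 0.841 to 1.27 in old aortae.

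*Nos1*, the neuronal synthase (chromosome 5, 117781032 to 117958840, plus strand), had few reads, 108 in all young and 156 in all old libraries. Its normalized counts were 37.8, 23.1, 18.9, 21.2 and 7.17 in young and 15.99, 62.1, 27.0, 24.1 and 28.2 in old aortae. Apart from old replicate 2, the old values lay within the young range. The log2 fold change was 0.54 (SE 0.41, 95% interval -0.36 to 1.43; edgeR Benjamini-Hochberg adjusted p 0.449), which leaves room for more than a doubling or for a small decrease. *Nos2*, the inducible synthase and not a member, was also low, with a young mean of 16.4 ± 7.10 and an old mean of 18.3 ± 6.54 normalized counts (SD, n = 5), and it was not called (log2 fold change 0.15, SE 0.33).

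*Cav1*, which encodes caveolin-1 (chromosome 6, 17306335 to 17341452, plus strand), was the most abundant member. Its normalized counts were 19350.1, 19719, 19899, 18212 and 19648 in young aortae and 14309, 13485, 14663, 14451 and 12369.7 in old aortae. Every old value lay below every young value. The means were 19366 ± 674 and 13856 ± 943 (SD, n = 5), and the log2 fold change was -0.47 (SE 0.06, 95% interval -0.61 to -0.34; edgeR Benjamini-Hochberg adjusted p 0.000477). *Cav1* was called lower in each of 20 refits with another tool, scaling, filter, block or set of libraries, and also at a threshold of 0.01. Relative to smooth muscle markers, where 6.86% of tested genes were called, *Cav1* was called lower at -0.44 (SE 0.09, edgeR Benjamini-Hochberg adjusted p 0.00865). *Ddah1* was called lower there too (-1.04, SE 0.30, edgeR Benjamini-Hochberg adjusted p 0.0486). *Pde1c* was called higher there, but it entered this test only through the old group, where it is high, so its call is a description only. Of 9 adipocyte markers none was called; the median of their log2 fold changes was -1.003, and their summed level was 8474 to 29217 normalized counts in the young and 3673 to 11080.0 in the old group. The part of these markers in the *Cav1* result was not tested.

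Of the enzymes that clear methylated arginines, *Ddah1* was called lower and *Ddah2* was not called. *Ddah1* (chromosome 3, 145758675 to 145894277, plus strand) had normalized counts of 49.1, 45.3, 67.8, 34.8 and 49.2 in young and 15.0, 24.0, 30.8, 30.9 and 15.6 in old aortae. The groups did not overlap, although the gap between the lowest young and the highest old value was small. The log2 fold change was -1.07 (SE 0.26, 95% interval -1.63 to -0.50; edgeR Benjamini-Hochberg adjusted p 0.0186), from 245 reads in young and 118 in old libraries, and it was called in each of the 20 refits, with adjusted p from 0.00207 to 0.0471, but not at a threshold of 0.01. *Ddah2* (chromosome 17, 35059035 to 35062095, plus strand), the far more abundant enzyme, averaged 1281 ± 61.0 in the young and 1188 ± 126 in the old group (SD, n = 5). It was not called, at -0.10 on the log2 scale (SE 0.07, 95% interval -0.26 to 0.06). The difference between the changes of *Ddah1* and *Ddah2* was not tested.

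*Gch1*, the rate-limiting enzyme of tetrahydrobiopterin synthesis (chromosome 14, 47153895 to 47189413, minus strand), had 54.2 to 79.2 normalized counts in young and 60.3 to 78.5 in old aortae. The old range lay inside the young one, and the change on the log2 scale was -0.07 (SE 0.15, 95% interval -0.39 to 0.26).

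*Prkg1*, the cGMP-dependent kinase of smooth muscle (chromosome 19, 30564489 to 31765033, minus strand), had mean normalized counts of 1797 ± 204 when young and 1812 ± 221 when old (SD, n = 5). The change on the log2 scale was 0.02 (SE 0.09), with a 95% interval of -0.18 to 0.22 and no call.

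Of the phosphodiesterases, *Pde5a*, the cGMP-specific enzyme (chromosome 3, 122728947 to 122859374, plus strand), was the most abundant member of its kind. Its normalized counts ran from 4144 to 5460.0 in young and from 5162 to 5688 in old aortae. It was not called, at 0.15 on the log2 scale (SE 0.07, 95% interval -0.01 to 0.30). *Pde1a*, a calcium- and calmodulin-activated enzyme (chromosome 2, 79834453 to 80129458, minus strand), averaged 638 ± 63.4 in the young and 726 ± 48.3 in the old group (SD, n = 5). The estimate was 0.19 on the log2 scale (SE 0.08, 95% interval 0.03 to 0.36; edgeR Benjamini-Hochberg adjusted p 0.126), so its interval lay above 0 but it was not called. The young and old libraries overlapped for both genes.

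*Pde1c*, a related calmodulin-activated enzyme known from proliferating smooth muscle (chromosome 6, 56069804 to 56569103, minus strand), had normalized counts of 2.04, 13.1, 3.99, 3.86 and 10.2 in young and 21.0, 38.1, 46.6, 10.6 and 17.5 in old aortae. Old replicate 4 lay among the young libraries and the other old libraries above them. The means were 6.64 ± 4.75 and 26.8 ± 15.0 (SD, n = 5), and the log2 fold change was 2.00 (SE 0.50, 95% interval 0.91 to 3.09; edgeR Benjamini-Hochberg adjusted p 0.0216). Only 33 reads in all young and 135 in all old libraries lay behind it, and it stood above the filter's limit of 0.459 CPM in 2 young and 5 old libraries, so it entered the test only through the group where it is high and its p is given as a description. Without the filter the adjusted p by edgeR with Benjamini-Hochberg adjustment was 0.0108. Its call was lost without young replicate 3 (adjusted p 0.0520), young replicate 4 (0.0616) or old replicate 3 (0.0540), all by edgeR with Benjamini-Hochberg adjustment.

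**Figure D3:**
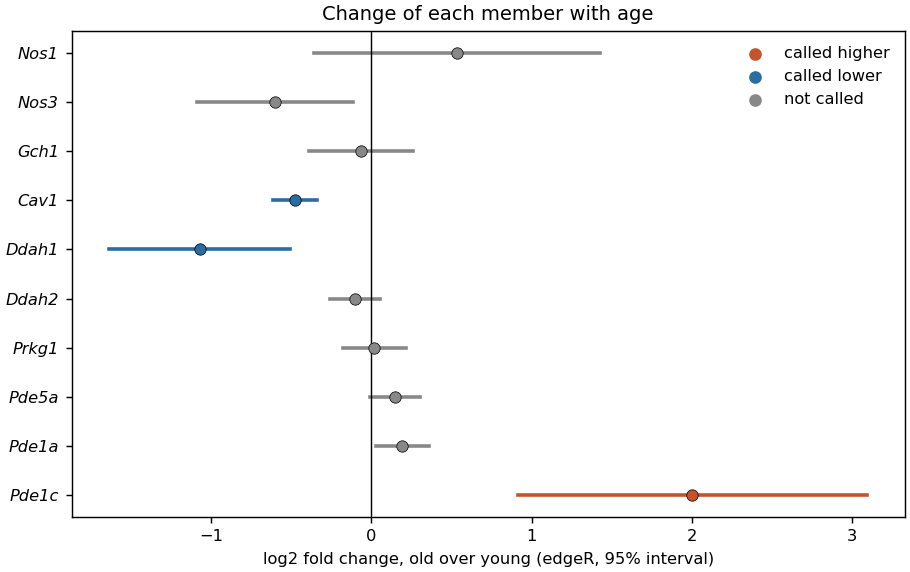
Log2 fold change of each member, old over young, with its 95% interval from edgeR (5 mice per group), coloured by call at a Benjamini-Hochberg adjusted p below 0.05. *Cav1* and *Ddah1* lie below 0 and *Pde1c* above it, while *Nos3* lies at -0.60 with an interval below 0 and no call.

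Per kilobase of exon, in normalized counts per kb, the young order of the levels was *Cav1*, *Ddah2*, *Pde5a*, *Nos3*, *Prkg1*, *Pde1a*, *Ddah1*, *Gch1*, *Nos1* and *Pde1c*. *Cav1* stood at 5623 ± 196 and *Pde1c* at 0.331 ± 0.237 (SD, n = 5). *Pde5a* overlapped with *Nos3*, *Ddah1* with *Gch1* and *Nos1* with *Pde1c*. In old aortae *Gch1*, at 10.8 ± 1.23, moved above *Ddah1*, at 5.83 ± 1.95 (SD, n = 5), and their libraries did not overlap. *Pde5a* and *Nos3* no longer overlapped in old aortae, whereas *Nos3* now overlapped with *Prkg1*.

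Among 10 phosphodiesterase genes, taken as shares of their summed normalized counts per kb, *Pde5a* made up 35.4% ± 2.21 when young and 38.5% ± 1.62 when old (SD, n = 5). *Pde1a* made up 7.67% ± 1.02 and 8.56% ± 0.57. *Pde1c* made up 0.0232% in young and 0.0955% in old aortae, a trace of the total in both. *Pde3a*, a cGMP-inhibited enzyme that breaks down cAMP, took the largest share, 48.6% and 45.9%. These shares are a description with no test, and shares within a sum are not independent of one another.

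**Figure D4:**
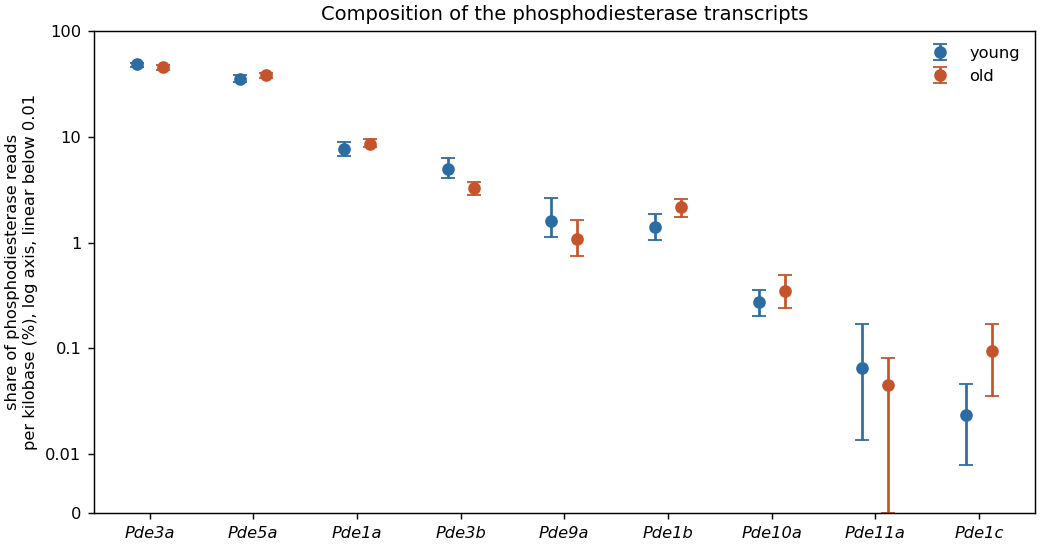
Share of each phosphodiesterase gene in the summed normalized counts per kb of 10 such genes, in percent on a log axis that is linear below 0.01; points are means of 5 young or 5 old aortae and bars span the lowest to the highest library. *Pde3a* and *Pde5a* dominate in both groups, and *Pde1c* stays below 0.2% in every library. *Pde2a*, at 0 in all young libraries, is not drawn. It shares 64.3% of its exonic bases with another gene on the same strand. How reads in such shared bases were counted is not given, so its level may be understated.

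The other genes of the pathway were 62 listed by role, of which 51 were tested and 14 were called, 6 higher and 8 lower, beside 11.5% of all tested genes called, 6.48% higher and 4.99% lower, with a median log2 fold change of -0.02. The receptor for nitric oxide changed in 1 subunit: *Gucy1b1*, the beta subunit of soluble guanylyl cyclase, fell from 5929 ± 544 to 4849 ± 148 normalized counts (SD, n = 5; log2 fold change -0.28, SE 0.07; edgeR Benjamini-Hochberg adjusted p 0.0155), with no overlap. Its values were 5140.1, 6460.3, 5928, 5709 and 6409 in the young and 4779, 4726, 5091, 4762 and 4890.3 in the old libraries, where the spread was the smaller. Its partners *Gucy1a1* (-0.04, SE 0.10) and *Gucy1a2* (0.00, SE 0.15) were not called, and *Gucy1b2* was at 0 in all libraries. The difference between the subunits was not tested.

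Of 14 synthase-binding proteins and kinases, *Nostrin*, which traffics the endothelial synthase, was higher (0.67, SE 0.16; edgeR Benjamini-Hochberg adjusted p 0.0187). The caveola genes *Cav3* (-0.58, SE 0.11) and *Cavin2* (-0.55, SE 0.13) were lower, as was the chaperone *Hsp90aa1* (-0.76, SE 0.19), whose call was kept in 12 of 20 refits. *Cavin2* kept its call in 16 of 20. Of the 50-base stretches of *Hsp90aa1* transcripts, 47.5% also occur in transcripts of other genes. How multi-mapped reads were counted is not given. The abundant caveola coat gene *Cavin1* was not called (-0.06, SE 0.05) and is named after its values were seen.

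Among the arginine transporters *Slc7a1* was lower (-0.54, SE 0.13) and *Slc7a2* higher (0.40, SE 0.09). *Pcbd1*, which recycles tetrahydrobiopterin, was higher (0.96, SE 0.26) and kept its call in 16 of 20 refits. The clearance receptor for natriuretic peptides, *Npr3*, was lower (-0.43, SE 0.11) and kept its call in 17 of 20 refits, and the phosphodiesterases *Pde1b* (0.68, SE 0.16) and *Pde3b* (-0.57, SE 0.12) went in opposite directions. Of 9 tested targets of the cGMP kinase edgeR called only the small heat shock protein *Hspb6*, lower (-0.41, SE 0.08), beside 11.5% of all tested genes called. DESeq2 also called *Vasp* and *Ppp1r12a* lower. With sample quality weights limma-voom called *Vasp* and *Ppp1r12a* lower too, and *Rgs2* higher. The cGMP exporter *Abcc4* (0.43, SE 0.11) and *Cyb5r3*, which reduces haem iron (0.39, SE 0.08), were higher, and *Abcc4* kept its call in 15 of 20 refits.

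**Figure D5:**
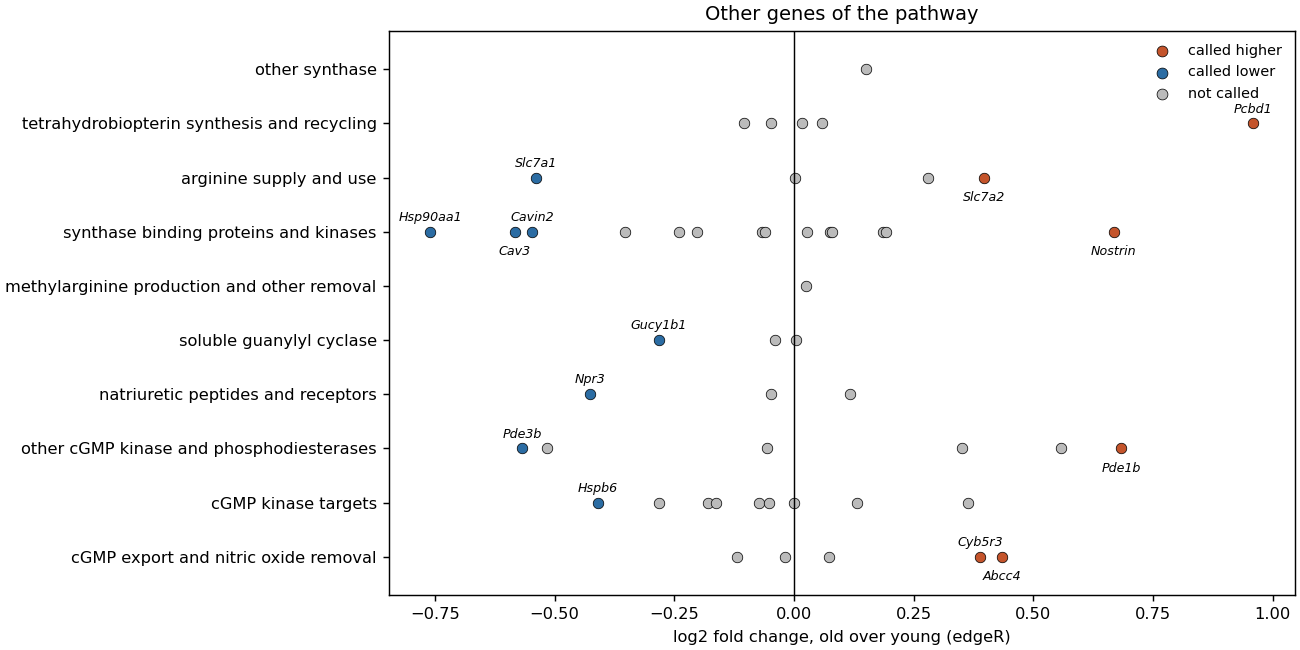
Log2 fold change, old over young, of the 51 tested other pathway genes by role, each a point from the edgeR fit of 5 mice per group, with called genes coloured and named. The 6 genes called higher and 8 called lower are spread over 8 of the 10 roles.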

How the data were processed

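RNA from 10 aortae was sequenced as stranded mRNA libraries. Per the labels and the study's methods, the authors trimmed reads with fastp 0.20.0, aligned them with STAR 2.7.0f to GRCm38 and counted reads per gene with featureCounts of Subread 1.6.4. The deposited values are whole-number counts per gene and library. How multi-mapped reads and strand were counted is not given in the sources used here.

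Counts were fitted for all genes with edgeR 4.0.16 (TMM scaling, default filter on low counts, robust quasi-likelihood test) in R 4.3.3, and p-values were adjusted by Benjamini-Hochberg over 14614 tested genes, with a call at 0.05. Levels are counts divided by DESeq2 1.42.0 size factors. Marker-relative fits added the log geometric mean CPM of a marker list to each library offset. Positions and exon lengths came from GENCODE M21. DESeq2, limma-voom 3.58.1, other scalings and filters, and leaving out libraries were alternatives. On simulated counts for old against young (14479 genes, 200 of them changed by 1 on the log2 scale), edgeR called 163 changed and 7 unchanged genes. Smaller changes, such as those of *Nos3* and *Cav1*, were not simulated, so the share called does not apply to them.

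The members, pathway lists and marker lists were chosen with earlier results of these data known. Genes named are the 10 members, *Nos2*, the guanylyl cyclase subunits and each listed pathway gene that was called. Named outside this rule, after their values were seen, are *Cavin1*, *Pde3a*, *Pde2a*, *Vasp*, *Ppp1r12a*, *Rgs2*, the neighbours of *Nos3* and 2 endothelial markers. Each library is a separate mouse, so p-values weigh the group difference against the spread between mice. Intervals and totals of few reads cover a limited depth of 19640401 to 22886153 reads.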

Additional observations from a re-analysis of the deposited data

Results flagged for a closer look

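In each of 27 named genes the 5 young and the 5 old libraries were examined for a value far from the rest, 54 groups in all, and chance flags about 1 in 20 such groups. In 6 groups, all of old aortae, 1 library stood apart. *Nos1* was at 62.1 normalized counts in old replicate 2, against 15.99 to 28.2 in the other old libraries, and *Nos2* at 29.4 there, against 13.5 to 17.99. *Ddah2* was at 965 in the same library, against 1216 to 1272. *Prkg1* was at 2194 in old replicate 4, against 1644 to 1799.8, and *Gucy1a1* at 6040.0 there, against 4815 to 5147. *Hsp90aa1* was at 8149.5 in old replicate 1, against 5906 to 6267.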

How the results depend on the processing

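The count of 3 called members was also 3 with the replicate number as a block, and 3 without young replicate 1 and old replicate 2 together, an alternative chosen after seeing the data in which *Pde1c* lost its call (adjusted p 0.0603) and *Nos3* gained one (0.0372). Leaving out 1 library gave 2 to 4 called members and 10 to 18 other pathway genes. At a threshold of 0.01 the counts were 1 member and 4 other pathway genes, and limma-voom with sample quality weights called 22 of the latter. Under the block 12 other pathway genes were called. Relative to endothelial markers 3 members were called, against 6 with summed marker CPM, 1 without the low-count filter and 1 with the replicate block, and 1 to 6 when a library was left out: 1 without young replicate 3 and 6 without old replicate 2. Relative to smooth muscle markers the leave-out range was 1 to 3, with 1 without young replicate 3. The cause was not tested. Same-numbered young and old libraries correlated from -0.324 to 0.132 in their deviations, and 1 of 5 correlated best with its own number. The labels state no pairing, and 5 such correlations cannot decide whether same-numbered samples share more than a number. No called value changed direction. Low reads limit *Pde1c*, *Nos1* and *Ddah1*. With a low-count filter *Pde1c* entered the tests only through the old group, so its place in these counts of called members is no support.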
